A study of Mus musculus with 4 samples.

Results

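Desmosomes are the plaques that rivet neighbouring keratinocytes to each other and anchor their keratin filaments. Their adhesive part is made of desmosomal cadherins, the desmogleins (Dsg) and desmocollins (Dsc), which bind across the gap between cells. Inside the cell plakoglobin (Jup) and plakophilins (Pkp) join the cadherin tails to desmoplakin (Dsp), which holds the keratins. In epidermis the cadherin isoforms are layered: Dsc3, Dsg3 and the widely expressed Dsc2 and Dsg2 belong to the lower layers, while Dsc1 and the Dsg1 genes belong to the differentiating layers above.

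The expression of 10 such genes, Dsc1, Dsc2, Dsc3, Dsg1a, Dsg1b, Dsg2, Dsg3, Dsp, Pkp1 and Jup, was read in sorted basal cells of mouse tail epidermis, out of 18193 genes with a named probe set. They were chosen as the cadherins and plaque proteins of the desmosome, and each was found by its platform gene symbol. A probe set is a group of short probes read together on the array, and those with _s_at, _a_at or _x_at in their name can match several transcripts. Of the 10 genes 9 had at least 1 probe set, 19 probe sets in all, and no probe set carried the symbol Dsg3. The cell sample comprised 4 arrays, 2 from each of 2 Cre lines on the CD-1 background. In both lines a tamoxifen-activated Cre switches on the RosaYFP reporter. In K14CREER/RosaYFP mice the keratin 14 promoter drives Cre, and the mice received 1 ug of tamoxifen. In InvCREER/RosaYFP mice the involucrin promoter drives it, and the mice received 10 ug, and the effect of dose cannot be told apart from that of the Cre line. The array titles give 3.5 days after induction and the treatment protocol 4 days, and no age is given. Living YFP-positive cells with high alpha6 integrin and without surface CD34 were collected from both lines. Nothing in the labels ties the arrays of a line to different mice, so how much of the spread behind the p-values is technical is not known.

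All values are log2 signals from RMA, a method that brings the arrays to a common distribution and leaves changes in total RNA out of sight. Differences are InvCREER minus K14CREER. Array medians ran from 5.41 to 5.44, and the number of arrays limits the precision. The sort was checked against its markers: Itga6 lay at 12.38 and 12.41 on the K14CREER arrays, at 11.62 and 11.77 on the others, and Cd34 at 3.59 to 3.88 on all arrays but K14CREER 1, where it was 6.07. That array also stood apart in the simple-epithelial keratin Krt18, at 7.69 against 4.20 to 4.40. InvCREER 1 had the highest Xist signal, 12.56 against 5.44 to 8.26, and the lowest signal of the Y-linked gene Eif2s3y, 7.49 against 9.89 to 10.25. The Y-linked genes Uty and Kdm5d read 4.70 and 5.04 on InvCREER 1 and 7.85 and 8.09 on InvCREER 2. The 2 InvCREER arrays thus differed in sex make-up and do not repeat 1 RNA sample, and sex was not in the model. The Actb probe sets of InvCREER 1 also had the widest 3′ minus 5′ gap, which grows as RNA degrades, at 1.24 against 0.68 to 0.94.

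The desmosomal cadherins divided by isoform. In cells marked by InvCREER the suprabasal isoforms Dsc1, Dsg1b and Dsg1a rose 8.33-, 4.66- and 2.44-fold. The brightest probe sets, those with the highest mean over the 4 arrays, of the lower-layer isoforms Dsg2 and Dsc2 lay 2.28- and 2.56-fold lower without passing the test, and Dsc3 differed by 0.07. Plaque genes differed by 0.77 or less. A call means an adjusted p from limma under 0.05, after the Benjamini-Hochberg procedure over 22519 probe sets. By that rule 3 of 18 tested member probe sets were called, all higher, against 0.684% called higher and 0.959% called in either direction over all tested probe sets. By limma 0 of the 18 were called lower, against 0.275% overall. At an unadjusted p under 0.05 there were 10 of the 18, 5 of them lower, against 13.9% overall in either direction. The lines did not overlap in 12 of the 18, 7 higher and 5 lower in InvCREER, against 42.0% of all tested probe sets (20.0% higher and 22.1% lower). The median difference of the 18 was 0.08 and their median absolute difference 0.98, against -0.01 and 0.21 over all tested probe sets. At the threshold of 0.1, 8 of the 18 were called, 4 of them lower, all 4 of Dsg2, against 3.07% of all.

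**Figure D1:**
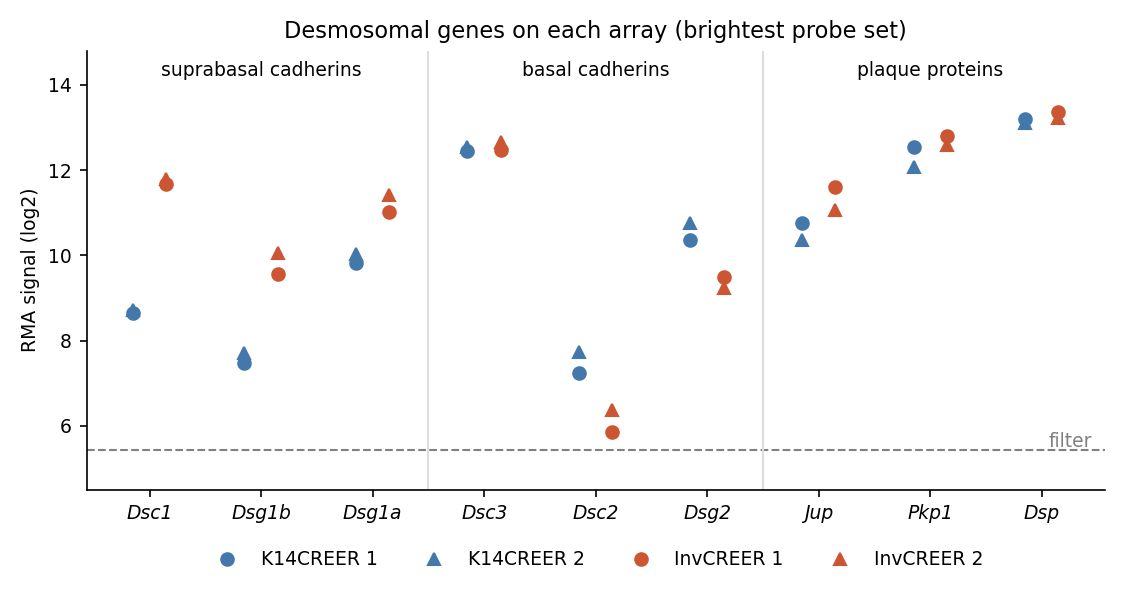
Log2 RMA signal (vertical axis) of the brightest probe set of each of 9 desmosomal genes on the 4 arrays, blue for K14CREER and orange for InvCREER, circles for number 1 and triangles for number 2, with the filter on dim probe sets dashed. Dsc1, Dsg1b and Dsg1a are higher on both InvCREER arrays, Dsc2 and Dsg2 are lower on both, and Dsc3 overlaps. Heights of different genes also depend on their probes and are not to be compared.

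Dsc1, the desmocollin of the differentiating layers, had the largest difference among the members. Its brighter probe set (1456203_at) read 8.64 and 8.71 on the K14CREER arrays and 11.67 and 11.80 on the InvCREER arrays. The spread within a line was therefore small beside the gap, and the difference was 3.06 (SE 0.17, 95% interval 2.66 to 3.46, adjusted p = 0.00451 by limma). It ranked 50 from the top among the 22519 tested probe sets. A dimmer Dsc1 probe set (1421460_at) read 4.86 and 5.63 against 7.09 and 8.60. Both InvCREER arrays were again the higher ones, but with an SD of 1.07 (n = 2), and the difference of 2.59 (SE 0.52) was not called (adjusted p = 0.0876 by limma). This probe set passed the filter of 5.42 through its InvCREER values, as its K14CREER mean was 5.25, though K14CREER 2 lay above the filter. With that mean under the filter the background limits the size of the difference.

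Dsg1b and Dsg1a are neighbouring copies of the desmoglein 1 gene, the partner of Dsc1 in the upper layers. Dsg1b read 7.47 and 7.70 in K14CREER and 9.55 and 10.06 in InvCREER, a rise of 2.22 (SE 0.26, 95% interval 1.60 to 2.84, adjusted p = 0.0230 by limma). Dsg1a read 9.83 and 10.04 against 11.02 and 11.42, a rise of 1.29 (SE 0.19, 95% interval 0.82 to 1.76, adjusted p = 0.0490 by limma). Neither gene overlapped between the lines, and each was highest on InvCREER 2. The Dsg1 copies are close paralogs with 1 probe set each, and none was named for the third copy, Dsg1c, so how far each probe set reads its sisters was not tested. Both calls rested on having both K14CREER arrays. Without K14CREER 1 the adjusted p from limma was 0.0816 for Dsg1b and 0.149 for Dsg1a, and without K14CREER 2 it was 0.0505 and 0.0900. The differences themselves were 2.10 and 1.18 without K14CREER 1 and 2.34 and 1.39 without K14CREER 2. The Dsg1a call was also lost without the filter on dim probe sets, without the variance trend and with a robust variance prior, whereas Dsc1 (1456203_at) was called in all 16 alternatives.

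**Figure D2:**
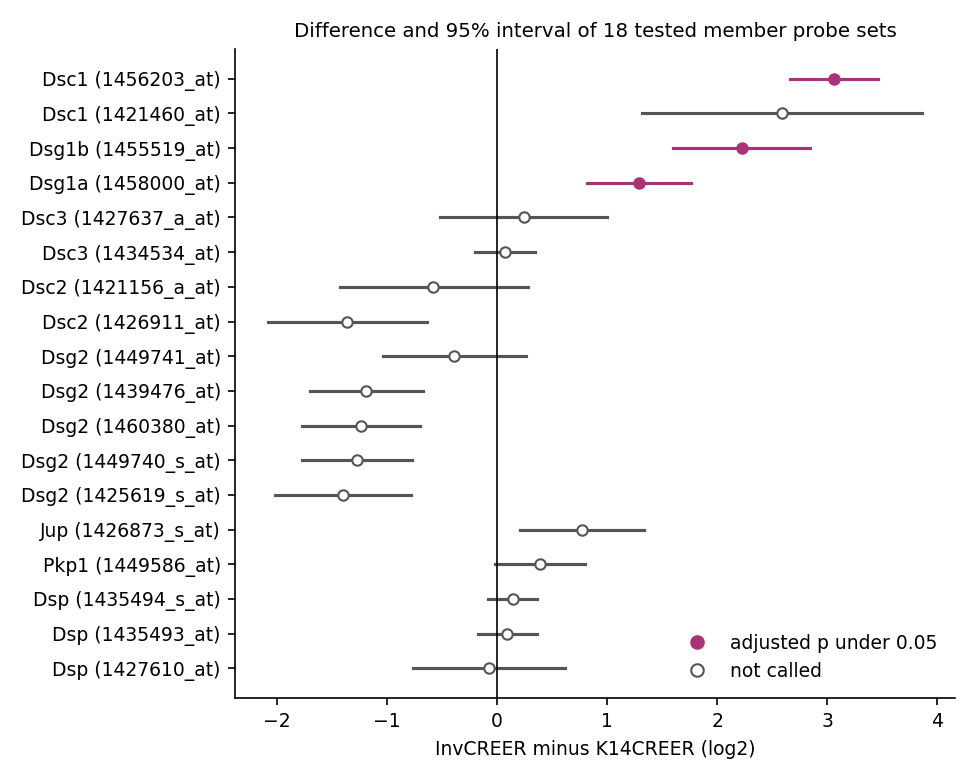
Difference InvCREER minus K14CREER in log2 units (horizontal axis) with its 95% interval from limma for each of the 18 tested member probe sets, filled where the adjusted p was under 0.05. The 4 suprabasal probe sets lie above 0, 3 of them called, and all 7 tested probe sets of Dsc2 and Dsg2 lie below 0 without a call.

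Dsg2, a desmoglein of most desmosome-bearing tissues and of the basal layer, was covered by 6 probe sets, of which 5 passed the filter. All 5 had lower means in InvCREER, by 0.39 to 1.40, and 4 of them had no overlap between the lines. The brightest (1439476_at) read 10.35 and 10.75 in K14CREER and 9.49 and 9.23 in InvCREER, a difference of -1.19 (SE 0.21, adjusted p = 0.0657 by limma). The probe set 1449740_s_at read 10.15 and 10.42 against 9.15 and 8.88, at -1.27 (SE 0.21, adjusted p = 0.0544 by limma), the nearest to the threshold among the members not called. The probe set 1460380_at read 7.37 and 7.31 against 6.10 and 6.10, at -1.24, and 1425619_s_at read 7.90 and 8.35 against 6.65 and 6.80, at -1.40. These 4 probe sets thus gave like differences, from -1.40 to -1.19, but they share a gene and the same 4 arrays and are not replicates. The remaining pair was dim: 1449741_at was at -0.39 (95% interval -1.04 to 0.26), with an InvCREER mean of 5.38 that lies under the filter, and 1426153_a_at, at 4.11 to 4.80, was not tested.

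Dsc2, the desmocollin of the same wide distribution, followed with lower values on its brighter probe set. That probe set (1426911_at) read 7.23 and 7.72 in K14CREER and 5.85 and 6.38 in InvCREER, without overlap, and the difference was -1.36 (SE 0.30, 95% interval -2.08 to -0.64, adjusted p = 0.104 by limma). The dimmer one (1421156_a_at) read 5.65 and 6.47 against 5.18 and 5.78, with overlap, at -0.58 (SE 0.35). Single arrays moved this value, to -0.98 when K14CREER 1 was left out and -0.17 when K14CREER 2 was, and to -0.27 and -0.88 when InvCREER 1 and InvCREER 2 were. Both probe sets were lower on array 1 than on array 2 in either line.

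Dsc3, the main desmocollin of the basal layer, did not follow Dsc2 and Dsg2. Its bright probe set (1434534_at) read 12.45 and 12.53 in K14CREER against 12.46 and 12.65. The lines overlapped, and the interval of the difference, -0.20 to 0.34, left out changes of the size seen for Dsc1, Dsg2 or Dsc2 on their brightest probe sets. The dimmer Dsc3 probe set (1427637_a_at) was at 0.24 (95% interval -0.52 to 1.00). Its sign turned without InvCREER 2 (-0.15), and that of the bright one without InvCREER 2 as well (-0.03). Dsg3, the basal desmoglein that pairs with Dsc3, was not analysed here.

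Differences between isoforms were also formed within each array from the brightest probe set of each gene. Their level depends on the probes, so only the shift between the lines is read. The size of the shift still varies with the probe set that stands for a gene. Dsc1 minus Dsc3 was -3.81 and -3.82 on the K14CREER arrays against -0.79 and -0.86, a shift of 2.99. Dsc1 minus Dsc2 was 1.41 and 1.00 against 5.82 and 5.42, a shift of 4.42. Among the desmogleins Dsg1b minus Dsg2 shifted by 3.41 and Dsg1a minus Dsg2 by 2.47. In each of these 4 pairs both InvCREER arrays lay above both K14CREER arrays. The exact permutation test (2-sided) gave p = 0.333 for each pair, and 0.333 after adjustment over the 4 pairs, which is the smallest p that 2 arrays against 2 can give. The mean of Dsc1, Dsg1a and Dsg1b minus the mean of Dsc2, Dsc3 and Dsg2 was -1.36 and -1.52 on the K14CREER arrays against 1.48 and 1.67, a shift of 3.01 that is given as a description. With Dsc3 as the single basal isoform the shift was 2.12.

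The plaque genes differed less. Jup, plakoglobin, which binds cadherin tails in desmosomes and adherens junctions, read 10.75 and 10.37 in K14CREER and 11.60 and 11.06 in InvCREER, at 0.77 (SE 0.23, 95% interval 0.21 to 1.33, adjusted p = 0.201 by limma). Its 1 probe set (1426873_s_at) is of a type that can match several transcripts. Pkp1, the plakophilin of the upper layers, read 12.53 and 12.08 against 12.80 and 12.58, at 0.39 (95% interval -0.02 to 0.80, adjusted p = 0.390 by limma). Without K14CREER 1 Pkp1 was at 0.61 and without K14CREER 2 at 0.16. Neither gene overlapped between the lines, though the nearest Jup values, 10.75 and 11.06, lay close beside SDs of 0.26 and 0.38 (n = 2 per line). Without InvCREER 2 Jup was called, at 1.04 (adjusted p = 0.0226 by limma). Dsp, desmoplakin, had 3 probe sets. The brightest (1435494_s_at) read 13.20 and 13.11 against 13.36 and 13.23, at 0.14 (95% interval -0.08 to 0.36). The second (1435493_at) was at 0.09 and the dim probe set 1427610_at at -0.07, both with overlap, and adjusted p from limma for the 3 ran from 0.610 to 0.966. The intervals of both bright Dsp probe sets reached no higher than 0.36.

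**Figure D3:**
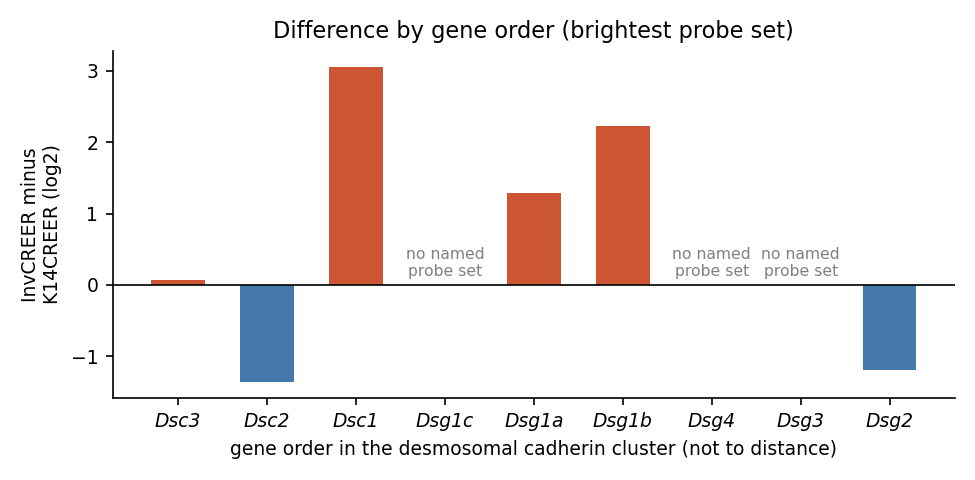
Difference InvCREER minus K14CREER in log2 units (vertical axis, bars from 0) of the brightest probe set of each desmosomal cadherin gene, in the order of the genes along the chromosome and not to distance. The 3 genes that rose lie in the middle of the order, with Dsc2 and Dsg2 at either side, and 3 genes had no named probe set.

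The desmosomal cadherin genes lie side by side, with no other protein-coding gene between them in the RefSeq table of GRCm38.p6, which was used here for order alone. Along the cluster the 9 genes run Dsc3, Dsc2, Dsc1, Dsg1c, Dsg1a, Dsg1b, Dsg4, Dsg3 and Dsg2, and 6 of them had a named probe set. In that order the differences were 0.07, -1.36, 3.06, 1.29, 2.22 and -1.19. The 3 that rose were thus inner members of the cluster. Dsc2 and Dsc1 are direct neighbours, and their brightest probe sets differed in opposite directions without overlap between the lines, Dsc2 without a call.

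Other desmosome genes were read from a list of 10, of which 8 had a probe set and 6 passed the filter, each represented by its brightest probe set. Of the 6, 1 was called, higher, against 0.959% of all tested probe sets, and their median difference was 0.43. At an unadjusted p under 0.05 by limma there were 5 of the 6, Pkp4 alone of them lower, against 13.9% of all. Pof1b, an actin- and desmosome-associated epithelial protein, read 11.55 and 11.78 in K14CREER and 12.56 and 12.71 in InvCREER, a rise of 0.98 (SE 0.13, adjusted p = 0.0352 by limma) that was lost without K14CREER 1 and without the variance trend. Evpl, envoplakin, which links desmosomes to the cornified envelope, read 9.44 and 9.29 against 10.78 and 10.47, at 1.26 (SE 0.19, adjusted p = 0.0511 by limma). Its partner periplakin (Ppl) overlapped, at 0.10. Among the plakophilins Pkp3 was at 0.50 and Pkp4, which also serves adherens junctions, at -0.94 (adjusted p = 0.0732 by limma), while Pkp2 lay under the filter. Perp, a tetraspan protein of desmosomes, was at 0.36 (SE 0.08, adjusted p = 0.102 by limma). Cdsn, the corneodesmosin gene, was under the filter at 4.98 to 5.33, and Dsg1c and Dsg4 had no named probe set.

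Adherens junctions are the actin-linked counterpart of desmosomes. Of 14 such genes 13 were tested and 1 was called, higher, against 0.959% of all tested probe sets. The median difference was 0.08. That gene was Nectin4, a cell adhesion molecule of the nectin family, which read 5.90 and 5.42 in K14CREER and 8.77 and 8.25 in InvCREER, a rise of 2.85 (SE 0.30, adjusted p = 0.0167 by limma). Its other probe set rose by 2.50, from 5.73 and 5.91. The K14CREER values of both lay near the filter of 5.42, so background limits the size of the rise. The classical cadherins lay on opposite sides of 0: Cdh1, E-cadherin, was at 0.43 (95% interval 0.08 to 0.78) and Cdh3, P-cadherin of the basal layer, at -0.95 (95% interval -1.55 to -0.35), neither called. Ctnnb1, beta-catenin, overlapped between the lines at -0.05 (95% interval -0.29 to 0.19).

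**Figure D4:**
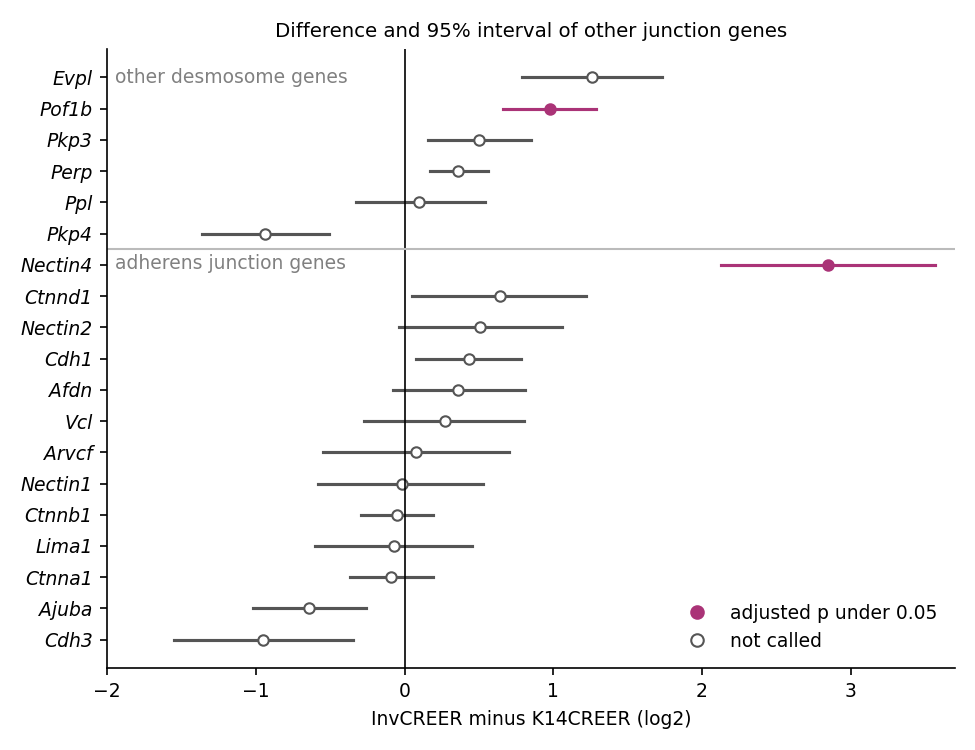
Difference InvCREER minus K14CREER in log2 units (horizontal axis) with its 95% interval from limma for 6 other desmosome genes and 13 adherens junction genes, filled where the adjusted p was under 0.05. Pof1b and Nectin4 are the 2 called, both higher, and Pkp4 and Cdh3 lie lowest in their groups.

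Of 17 regulators and partners of desmosomes 2 were called, both higher, against 0.959% of all tested probe sets, with a list median of 0.12. Both were grainyhead-like transcription factors, Grhl3 at 2.78 (SE 0.25) and Grhl1 at 1.87 (SE 0.17), with adjusted p of 0.0122 and 0.0133 by limma. The call of Grhl1 was lost without K14CREER 1. The basal transcription factor Trp63 was at -0.49 (adjusted p = 0.126 by limma), the kinase Prkca at -0.43 and the sheddase Adam17 at 0.17. The largest differences without a call, named after their values were seen, were those of the differentiation factors Cebpa, at 1.89 (adjusted p = 0.0801 by limma), and Ovol1, at 1.33 (adjusted p = 0.0908 by limma). Of 4 tested genes among 6 for proteases and inhibitors of cadherin turnover none was called by limma at the adjusted p. Against 13.9% of all tested probe sets, 3 of the 4 had an unadjusted p under 0.05 by limma. These were Klk5, a kallikrein that cleaves corneodesmosomes, at 1.32, its inhibitor Spink5 at 1.51, from K14CREER values of 4.47 and 5.03 under the filter, and the cathepsin Ctsl at -1.66. The keratins that desmosomes anchor differed by layer as well: Krt1, Krt10 and Krt2 rose by 1.29, 0.71 and 1.55, Krt15 fell by 1.38, and Krt5 and Krt14 were at -0.46 and -0.33 without a call. The calls of Krt10, Krt2 and Krt15 were lost without K14CREER 1, and those of all 4 without the variance trend.

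The pattern of Dsc1 over the 4 arrays was set against all other tested genes by the Euclidean distance between values centred on each probe set's own mean. Among the nearest were Selenbp1, a selenium-binding protein, at a distance of 0.190, Ly6g6c at 0.218, Tmem45b at 0.300 and Grhl3 at 0.356. The choice by likeness fixes the size of their differences, which ran from 2.78 to 3.17, and Tmem45b passed the filter through its InvCREER values alone. A correlation over 4 arrays is not given.

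Markers of other cell types were set beside these results. The 6 sebaceous markers with a probe set averaged 7.49 and 6.88 on the K14CREER arrays, 10.68 on InvCREER 1 and 8.96 on InvCREER 2. Against 13.9% of all tested probe sets, all 6 had an unadjusted p under 0.05 by limma, and 0 were called at the adjusted p. Of these, Mc5r passed the filter through its InvCREER values alone. The largest differences in the list were those of Far2, Cidea and Elovl3, at 4.01, 3.69 and 3.36. Their K14CREER means were 5.70, 5.69 and 6.11, above the filter, though on K14CREER 2 Far2 (5.11) and Cidea (4.98) lay under it. Awat2 and Soat1 had no named probe set, and Scd1 and Plin2 are also made by keratinocytes. The 5 Langerhans markers had means of 6.27 and 5.83 against 8.05 and 6.72, with 0 called by limma at the adjusted p. Of the 5, 4 had higher means and 1, Epcam, a lower one, at -0.30 with overlap. Among them Cd207 and Ctss likewise passed the filter through their InvCREER values alone. Both lists were highest on InvCREER 1. Dsc1, Dsg1b and Dsg1a were highest on InvCREER 2, and without InvCREER 1 their differences were 3.12 (1456203_at), 2.48 and 1.48. Jup and Pkp1 were highest on InvCREER 1, and without it Jup was at 0.50 and Pkp1 at 0.28. The simple-epithelial keratin Krt18 was high on K14CREER 1, and the brightest probe sets of Dsg2 and Dsc2 read 10.35 and 7.23 on that array and 10.75 and 7.72 on K14CREER 2. Of the 4 tested hair follicle markers Lgr6 was called, lower, at -1.79 (adjusted p = 0.0292 by limma). That call was lost without either K14CREER array, and a second Lgr6 probe set, under the filter, was at -0.52. The other 3 tested follicle markers had higher means, Krt79 the most, at 1.98 (adjusted p = 0.182 by limma). Both tested fibroblast markers had lower means, Dcn at -1.87 (adjusted p = 0.0552 by limma). The T cell, melanocyte, Merkel and endothelial lists held no call. The part of other cells in any of these values was not tested. All 6 basal keratinocyte markers had lower means, with list means of 12.87 and 12.78 against 12.12 and 11.93. The 5 tested of 6 suprabasal markers had higher means, and the list means were 9.98 and 10.13 against 10.76 and 11.06. Between the InvCREER arrays Lor, which overlapped between the lines, differed most, at 6.88 and 7.70. Next came Flg, dim and not tested, at 3.36 and 3.97. On the same arrays Krt1 read 13.48 and 13.74, Krt10 14.07 and 14.11, and Sbsn 13.11 and 13.03. Of the 5 tested suprabasal markers 3 were called, against 0.959% of all tested probe sets. They were Krt1, Krt10 and Sbsn, the last at 1.97 (adjusted p = 0.0103 by limma). In such sorted pools a change in the share of cells and a change in RNA per cell cannot be told apart.

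**Figure D5:**
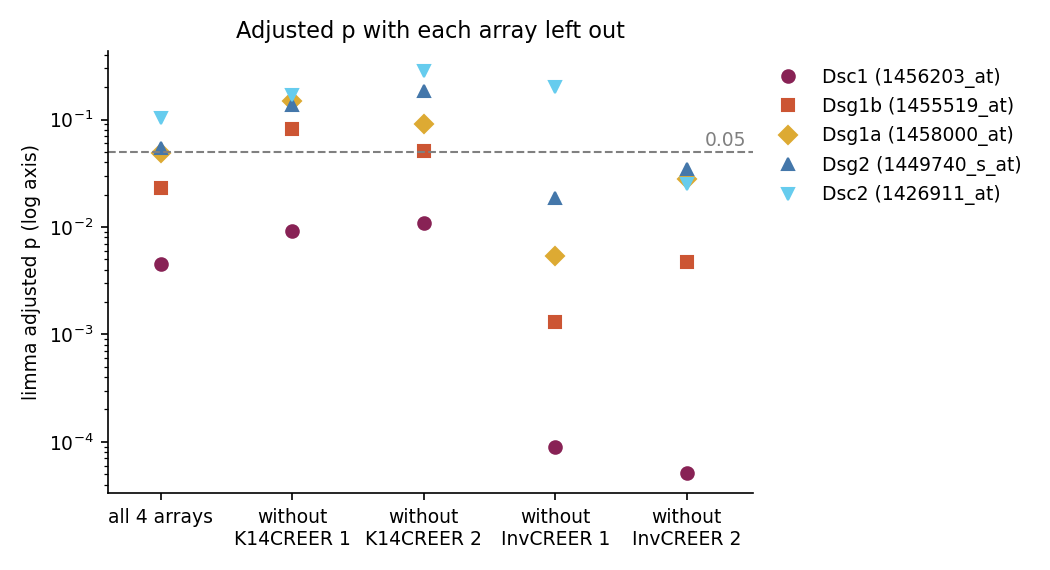
Adjusted p from limma (vertical axis, log scale) of the brightest probe sets of Dsc1, Dsg1b, Dsg1a and Dsc2 and of the Dsg2 probe set 1449740_s_at, with all 4 arrays and with each array left out, and 0.05 dashed. Dsc1 stays under 0.05 throughout, Dsg1b and Dsg1a pass it without either K14CREER array, and Dsg2 falls under it without either InvCREER array.

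Single arrays moved the number of calls. Of the member probe sets 1 was called without either K14CREER array, namely 1456203_at of Dsc1, against 6 without InvCREER 1 and 9 without InvCREER 2. The calls among all probe sets moved the same way, from 216 to 82 without K14CREER 1 and 143 without K14CREER 2, and to 499 without InvCREER 1 and 981 without InvCREER 2. Without InvCREER 1 both bright Dsg2 probe sets were called, at -1.32 (1439476_at, adjusted p = 0.0243 by limma) and -1.41 (1449740_s_at, adjusted p = 0.0186 by limma). Without InvCREER 2 they were called too, at -1.06 and -1.14, and so was the brighter Dsc2 probe set, at -1.62 (adjusted p = 0.0253 by limma). Such a fit takes the spread of a line that has 1 array left from the other line.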

How the data were processed

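Per the labels' protocols the authors amplified 100 ng of total RNA for each array by 3′ in vitro transcription. Per the submitters' processing notes the probe sets were summarised by RMA (Affymetrix Expression Console 1.1), and the deposited values are log2 signals. The 45037 non-control probe sets held 34945 with a single gene symbol, 932 with more than 1 and 9160 with none here. Symbols came from the platform annotation, updated by Entrez number through a RefSeq table of GRCm38.p6. Probe sets with a mean at or above the median of 5.42 were tested, 22519 in all. The lines were compared in limma 3.58.1 under R 4.3.3, with a variance trend in eBayes, 2-sided and without a block, and the step was tested on simulated data. The text names every member probe set, the other desmosome genes and called members of the other lists. A few further list members were named by rule or after their values were seen. Each list gene stands for its brightest probe set. Members and lists were chosen with earlier results of these data known. Alternatives covered filter, variance model, array weights, scaling, block, left-out arrays, threshold and unit of testing. Of the 5 genes nearest to Dsc1, 1 is not reported here. Figures were drawn with matplotlib 3.10.9.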

Additional observations from a re-analysis of the deposited data

How the results depend on the processing

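Among all probe sets 216 were called, including 3 members, all 3 higher. The stricter filter gave 405 and 5, the threshold of 0.1 gave 692 and 8, and 1 probe set per gene gave 551 and 5; the members added in the filter and gene-level fits were lower ones, of Dsg2 and, with 1 probe set per gene, Dsc2. Without the variance trend 122 were called among all, and with the mean of a gene's probe sets 450. The threshold of 0.1 was applied to the same fit, so its added calls follow from the looser limit. For the other changes the cause was not tested, save that the stricter filter and the gene-level fits test fewer features. Leaving out 1 array gave 82 to 981 in the whole table, 1 to 9 members and 1 to 5 higher members. With the replicate number as a block, 1390 were called in the whole table and 10 members, 5 of them higher. It added calls of 4 Dsg2 probe sets, 1426911_at of Dsc2, Jup and 1421460_at of Dsc1. Deviations of same-numbered arrays correlated at r = 0.380 across probe sets. The titles do not say that a number marks shared mice or days, and with 2 pairs this was not taken as settling a pairing. Signs reversed in 3 member probe sets that were not called: over the left-out arrays 1434534_at of Dsc3 ran from -0.03 to 0.16 and 1427637_a_at from -0.15 to 0.63, both lowest without InvCREER 2, and 1427610_at of Dsp ran from -0.39 to 0.25, highest without InvCREER 1. The cause was not tested. The shift of suprabasal against basal cadherins was 2.12 with Dsc3 alone as basal, 2.70 with the mean of a gene's probe sets, 3.89 with Dsc1 alone and 2.58 without Dsc1. It and the 4 isoform pairs kept their sign without any 1 array. Array weights changed no count, and both other scalings added a call of 1449740_s_at of Dsg2, for 4 members. Signal near background limits the size of the dimmer Dsc1, Dsc2 and Dsg2 values.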
